A study of Oncorhynchus tshawytscha with 15 samples.

Results

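The exposure of juvenile Chinook salmon to 21° was compared with the 12° control group by RNAseq of gill. The juveniles were raised from the eggs of a California hatchery and were approximately 5 months old after hatching. The paper describes the fall run in its introduction, but its methods do not name the run of these fish. The fish of the 21° group were held for 3 hr in water at 21° and then for 1 hr at 12°. The control fish went through the same handling at 12° throughout. The comparison rests on 6 of the 15 libraries of the experiment, 3 at 21° and 3 at 12°, and each library was made from the pooled RNA of 11 fish, which makes 33 fish per temperature and leaves no value for a single fish. The other 9 libraries, from fish held at 15°, 18°, and 25°, are used only to place the contigs of this comparison along the whole range of temperatures. The members of the comparison are the contigs that reached 10 reads in 3 or more of these libraries, which were 144379 of the 183740 contigs in the deposited table (78.6%). The other 39361 contigs had too few reads in these libraries and were not tested.

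The gill is the surface through which a salmon takes up oxygen, exchanges ions, and excretes nitrogen, and its thin epithelium lies directly against the water, so that its cells meet the temperature of the water almost at once. Animal cells respond to an abrupt rise in temperature with the heat shock response, in which heat shock factors switch on the transcription of chaperone genes, whose products hold and refold unfolded proteins, while the transcripts of many other genes become less abundant. The deposited table gives contigs of a de novo assembly by number, without gene names, so none of the contigs below can be assigned to these functions here and the tissue could not be checked against marker genes. A contig is a stretch of assembled transcript and not a gene. Several contigs can come from 1 transcript, and close paralogues, which are common in salmonids, can share a contig. The contigs fall into 2 sets by name, 132830 written here as contig and a number, and 50910, whose names begin with denovo, written as denovo_contig and a number. In 1859 cases the same number occurs in both sets. In bulk RNA, fewer cells of a type and less transcript per cell cannot be told apart.

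The 3 libraries at 21° held 63021529, 76157437, and 77444684 reads in replicates 1, 2, and 3, against 82348290, 86230206, and 77838763 reads in the 12° control group. In each of the 6 libraries 97.8% of the reads aligned to 1 contig only. CPM is the read count scaled to a common library size. The CPM of a contig with 3 reads is given here by library totals, without the further scaling of the other CPM values. It was 0.0387 to 0.0476 CPM at 21° and 0.0348 to 0.0385 CPM at 12°. These values mark a low level of reads and do not include the spread between pools. The spread between pools beyond counting error, as a coefficient of variation estimated in edgeR, was 0.269 at 21° and 0.271 at 12°.

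The libraries differed by temperature and also within each temperature. In the first principal component, which held 51.5% of the variance over the 72190 more abundant contigs, 21° replicates 1 and 2 lay at one end and 12° replicates 2 and 3 at the other, with 21° replicate 3 and 12° replicate 1 between them. In the second component, with 29.0% of the variance, all 3 pools at 21° lay above all 3 pools at 12°. The rank correlation of 12° replicate 1 was 0.954 and 0.953 with 21° replicates 1 and 2, against 0.945 and 0.925 with 12° replicates 2 and 3, and that of 21° replicate 3 was 0.954 and 0.945 with 21° replicates 1 and 2, against 0.949 with 12° replicate 3. These correlations are across contigs and describe the libraries only. 12° replicate 1 stood apart in a further way, since it had at least 1 read in 183630 contigs, among them 132807 of the 132830 contigs without denovo in their name, where the other 5 libraries had reads in 118900 to 125024 of that set. Results are therefore given below with and without single libraries.

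**Figure D1:**
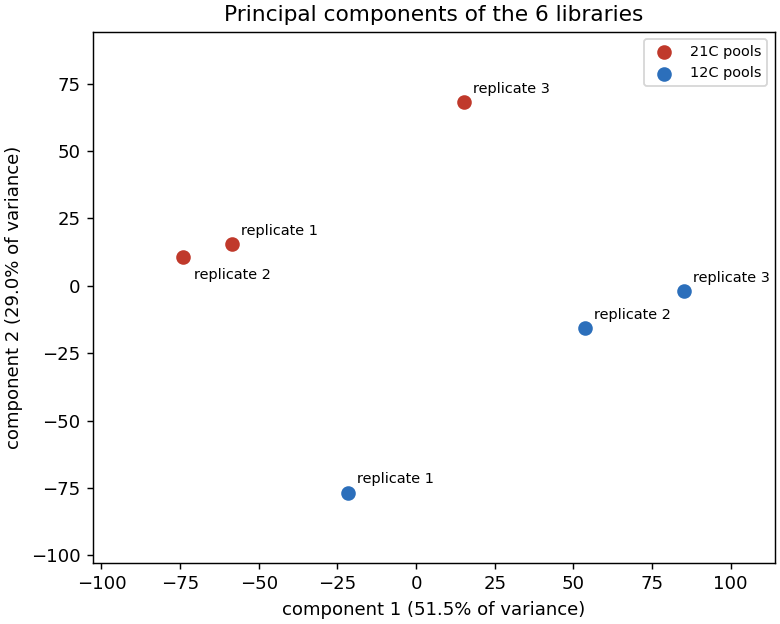
Each point is 1 of the 6 libraries, placed by the first 2 principal components of log2 CPM (no unit) over 72190 contigs, with the 21° pools in red and the 12° pools in blue. The first component held 51.5% of the variance and the second 29.0%, and 12° replicate 1 and 21° replicate 3 lay away from the other pools of their groups.

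At 21°, 790 contigs were upregulated and 86 downregulated against the 12° control group, which is 0.547% and 0.0596% of the contigs tested (quasi-likelihood test of edgeR, with p-values adjusted by the method of Benjamini and Hochberg to below 0.01 and with fold changes above 2). Upregulated contigs made up 90.2% of the 876 contigs called. The median log2 fold change over all contigs tested was -0.02. In all 790 upregulated contigs the 3 pools at 21° lay above the 3 pools at 12° without overlap, an order found in 13.1% of the contigs tested, and in all 86 downregulated contigs they lay below, an order found in 9.77% of the contigs tested. Most contigs with separated groups were thus not past the threshold.

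The size of these counts changed when single libraries were left out. Each such fit also had fewer pools than the main fit, which weakens the test whichever library is left out. How much of each change came from the library itself was not tested. Without 12° replicate 2, 236 contigs were upregulated and 10 downregulated, and without 12° replicate 3, 354 and 24. Without 21° replicate 1 the counts were 245 and 8, and without 21° replicate 2 they were 262 and 8. Leaving out either library that stood apart changed the counts of upregulated contigs less, to 803 upregulated and 116 downregulated without 12° replicate 1 and to 645 and 51 without 21° replicate 3. Of the 790 upregulated contigs, 667 were called again without 12° replicate 1, and 224 were called in all 6 of the fits that each left out 1 library. Of the 86 downregulated contigs, 60 were called again without 12° replicate 1, and 6 were called in all 6 of these fits. Every one of the 876 contigs kept its direction in all 6 of them.

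**Figure D2:**
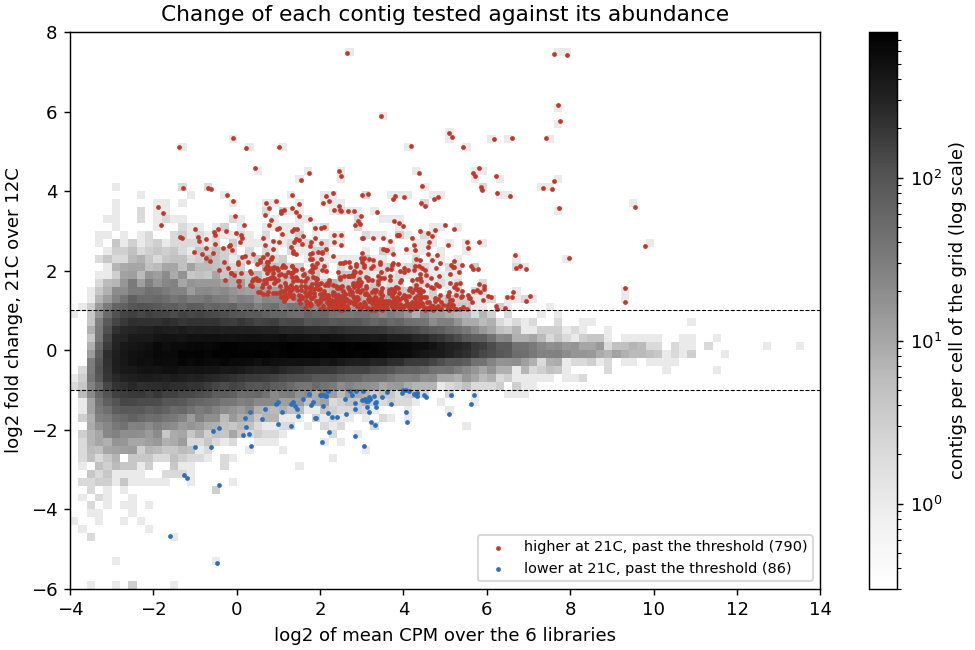
The log2 fold change of 21° over 12° is plotted against the log2 of the mean CPM over the 6 libraries, with the 144379 contigs tested as grey cells shaded by number, 790 upregulated contigs in red, 86 downregulated contigs in blue, and dashed lines at a fold change of 2; 5 contigs below -6, none of them called, are drawn at -6. Upregulated contigs reach 7.49 on the log2 scale and occur up to high abundance, whereas no downregulated contig has a mean above 51.9 CPM. That level ranks 2415th among the 144379 contigs tested, so few of 86 contigs would lie above it by their number alone. The mean includes the reads gained or lost at 21°.

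Upregulation at 21° was mostly modest in size. Of the 790 upregulated contigs, 510 were more than 2-fold and up to 4-fold higher at 21°, 178 up to 8-fold, 66 up to 16-fold, and 36 more than 16-fold. The median log2 fold change was 1.64, with quartiles of 1.29 and 2.29. The 36 contigs beyond 16-fold had a median level of 68.4 CPM at 21°, against 2.02 CPM at 12°. A denovo name was carried by 25 of them, against 371 of the 790 upregulated contigs and 47262 of the 144379 tested. The 36 contigs had a median length of 394 bp, against 800.5 bp over the 790. Of these 36, 31 were called in all 6 fits that left out a library, against 56 of the 510 with changes of up to 4-fold.

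The contig with the largest rise, denovo_contig_78846, is 267 bp long. It had 650, 1031, and 984 reads at 21° (10.6, 13.97, and 12.5 CPM in replicates 1, 2, and 3), against 0, 12, and 5 reads at 12° (0, 0.134, and 0.0620 CPM). The pools of the 2 temperatures lay far apart, with a log2 fold change of 7.49 ± 0.51 (SE; edgeR, adjusted p = 2.20e-04). Its size rests on few control reads, and only 1.86% of its reads aligned to this contig alone. Tested on those unique reads it was no longer past the threshold (log2 fold change 3.63 with edgeR adjusted p = 0.0850), so that the contig to which most of these reads belong was not resolved.

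The next pair of contigs had ample reads. denovo_contig_71903 (255 bp) had 398.3, 418.2, and 350.9 CPM at 21°, against 2.15, 2.80, and 1.72 CPM at 12°. The pools at 12° varied little beside the distance between the temperatures, and the log2 fold change was 7.45 ± 0.22 (SE; edgeR, adjusted p = 9.03e-06). denovo_contig_60596 (1707 bp) had 485.4, 528.9, and 424.1 CPM at 21°, against 2.81, 3.48, and 2.08 CPM at 12°. In both contigs 21° replicate 3 was the lowest of the heated pools and 12° replicate 3 the lowest of the controls. The log2 fold change of denovo_contig_60596 was 7.42 ± 0.23 (SE; edgeR, adjusted p = 1.05e-05), and with single libraries left out it stayed between 7.25 and 7.61.

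Another pair showed the pattern at a somewhat higher control level. denovo_contig_67625 (276 bp) had 374.5, 447.6, and 419.8 CPM at 21°, against 3.70, 7.90, and 5.74 CPM at 12°. Its log2 fold change was 6.16 ± 0.29 (SE; edgeR, adjusted p = 2.92e-05). denovo_contig_21086 (415 bp) had 405.2, 443.9, and 425.1 CPM at 21°, against 5.46, 10.4, and 7.45 CPM at 12°. In these 2 contigs 12° replicate 2 was the highest control, and 21° replicate 1 was the lowest heated pool. The log2 fold change of denovo_contig_21086 was 5.77 ± 0.25 (SE; edgeR, adjusted p = 2.31e-05).

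denovo_contig_41831 (964 bp) completed the 6 contigs with the largest rises, at a lower level. It had 22.4, 25.2, and 17.9 CPM at 21°, against 0.387, 0.502, and 0.198 CPM at 12°. Its log2 fold change was 5.90 ± 0.30 (SE; edgeR, adjusted p = 4.74e-05). Only 13.96% of its reads aligned to it alone. On those unique reads it stayed past the threshold, with a smaller log2 fold change of 3.49 (edgeR, adjusted p = 1.16e-03). All 6 of these contigs were called in each fit that left out a library.

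**Figure D3:**
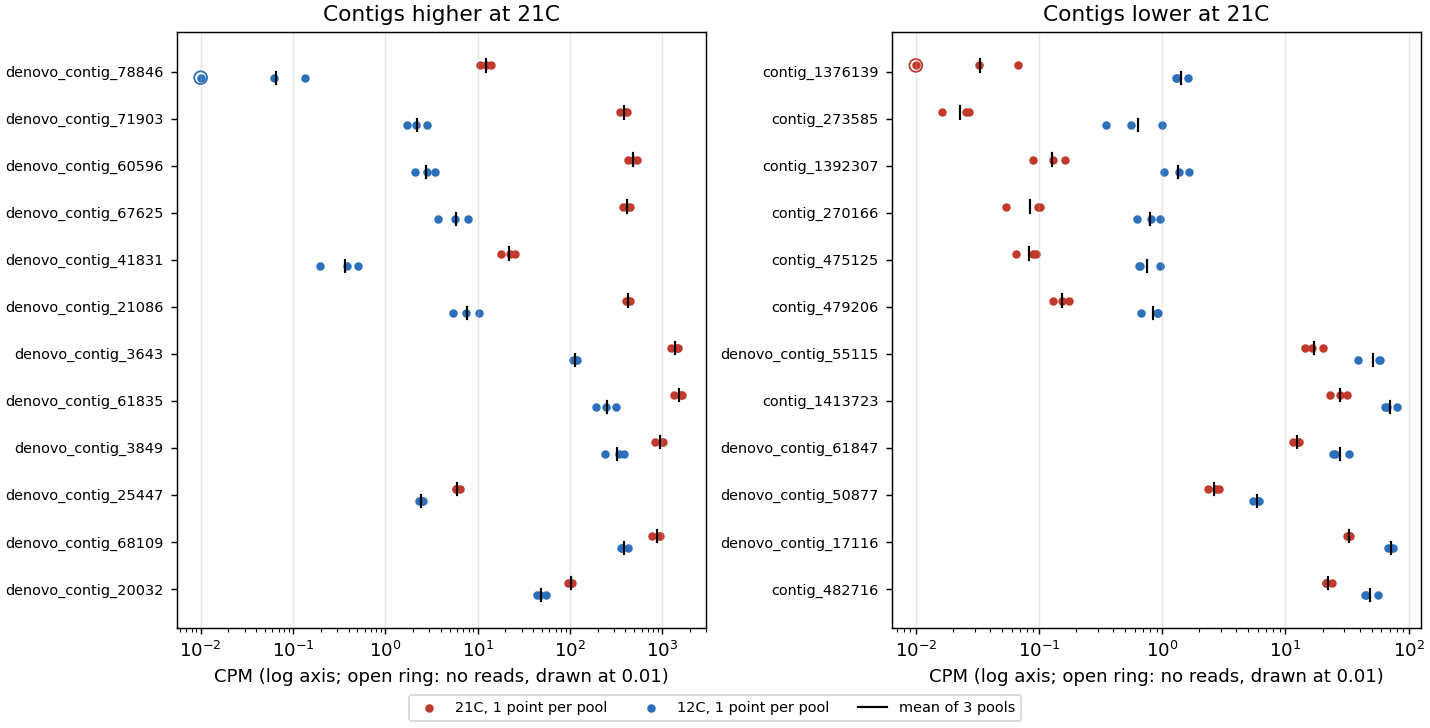
Each point is the CPM (log axis) of 1 pool, red at 21° and blue at 12°, for the 12 upregulated contigs named in the text on the left and the 12 downregulated ones on the right, and the black bars are means of 3 pools; pools without reads are drawn at 0.01 with a ring. The 24 contigs were chosen among those called whose pools of the 2 temperatures do not overlap. Their log2 fold changes are 1.05 to 7.49 on the left and -5.35 to -1.12 on the right.

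Ordered by the number of reads gained rather than by fold, other contigs led. denovo_contig_61835 (2869 bp) had 1651, 1607, and 1354 CPM at 21°, against 315.1, 244.8, and 193.3 CPM at 12°. Its mean was 1537 ± 160.1 CPM at 21° and 251.1 ± 61.1 CPM at 12° (SD, n = 3 pools each), a log2 fold change of 2.61 ± 0.19 (SE; edgeR, adjusted p = 3.18e-04). It was the contig with the 41st highest mean CPM over the 6 libraries. denovo_contig_3643 (3206 bp) had 1459, 1476, and 1245 CPM at 21°, against 119.6, 117.0, and 107.2 CPM at 12°, and its control pools were close together. Its log2 fold change was 3.60 ± 0.13 (SE; edgeR, adjusted p = 1.55e-05). Together these 2 contigs accounted for 13.9% of the summed gain in CPM of the 790 upregulated contigs.

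Next by reads gained, denovo_contig_3849 (2763 bp) averaged 952.6 ± 107.3 CPM at 21° and 320.7 ± 75.8 CPM at 12° (SD, n = 3 pools each), a log2 fold change of 1.57 ± 0.19 (SE; edgeR, adjusted p = 4.14e-03). denovo_contig_68109, a short contig, averaged 883.1 ± 86.3 CPM at 21° and 383.3 ± 36.9 CPM at 12° (SD, n = 3 pools each), a log2 fold change of 1.204 ± 0.13 (SE; edgeR, adjusted p = 2.37e-03). Scaled by length, it was the contig with the highest level at 21° among the upregulated contigs, at 1770 RPKM (CPM per kb of contig) against 768.1 RPKM at 12°. Both contigs were lost without 21° replicate 1 (adjusted p = 0.0353 and 0.0263 from the edgeR test), without 21° replicate 2 (0.0330 and 0.0246), and without 12° replicate 2 (0.0344 and 0.0309), and denovo_contig_68109 also without 12° replicate 3 (0.0143).

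These 4 were the only contigs called among the 100 with the highest mean CPM. Among the 1000 with the highest mean CPM, 25 were upregulated and 0 downregulated, against 0.547% and 0.0596% of all contigs tested. At the second of these shares, 0 downregulated contigs among 1000 is not unusual. The mean used for this ranking includes the reads gained or lost at 21°, so that a contig can enter the 1000 by its rise. For example, denovo_contig_60596 ranked 264th with a mean of 2.79 CPM at 12°. The most abundant contig, denovo_contig_28702 (1820 bp), had 10805, 12049, and 10350 CPM at 21°, against 11427, 10200, and 10260 CPM at 12°, and the pools overlapped (log2 fold change 0.06 ± 0.14, edgeR adjusted p = 0.880). denovo_contig_61658 averaged 6321 ± 562.0 CPM at 21° and 6290 ± 595.4 CPM at 12° (SD, n = 3 pools each), with a log2 fold change of 0.01 ± 0.14 (SE) that changed sign with library totals. denovo_contig_29829 averaged 3474 ± 248.6 CPM at 21° and 3544 ± 350.9 CPM at 12° (SD, n = 3 pools each), with a log2 fold change of -0.03 ± 0.13 (SE). No difference was detected in these 3 contigs, whose single libraries differed by more than the group means did.

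Fewer contigs passed the threshold downward than upward, and their changes were smaller at the median. With edgeR adjusted p-values under 0.05 and the same fold, there were 1607 upregulated and 474 downregulated contigs, so rises were more frequent there too. Before adjustment the balance was different. Among changes above 2-fold with unadjusted edgeR p-values under 0.05, 3608 contigs were higher at 21° (2.5% of those tested) and 3941 lower (2.73%). Contigs without a change also reach such unadjusted p-values, and the reason for the different balance was not tested. Of the 86 downregulated contigs, 71 were more than 2-fold and up to 4-fold lower at 21°, 10 up to 8-fold, 3 up to 16-fold, and 2 more than 16-fold. The median log2 fold change was -1.39, with quartiles of -1.78 and -1.16. The largest falls were in contigs with few reads. contig_1376139 (1128 bp) had 2, 5, and 0 reads at 21°, against 130, 117, and 105 reads at 12°. Its log2 fold change was -5.35 ± 0.58 (SE; edgeR, adjusted p = 2.79e-03). The ratio of 12° over 21° in summed reads, after scaling, was 42.9 with an exact 95% interval of 20.6 to 107.6. Such intervals treat each read as independent, although the reads were paired-end, and cover counting error only.

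contig_273585 (1300 bp) had 1, 2, and 2 reads at 21°, against 28, 50, and 81 reads at 12°. It was the only downregulated contig with at most 3 reads in every pool at 21°, and 12° replicate 3 held about the reads of the other controls together. Its log2 fold change was -4.68 ± 0.61 (SE; edgeR, adjusted p = 6.42e-03), and the ratio of 12° over 21° in summed reads was 27.2 (exact 95% interval 11.4 to 84.8). contig_1392307 (473 bp) had 8, 12, and 7 reads at 21°, against 82, 149, and 111 reads at 12°, a log2 fold change of -3.40 ± 0.35 (SE; edgeR, adjusted p = 2.03e-03). contig_270166 (1284 bp) had 6, 4, and 8 reads at 21°, against 50, 72, and 77 reads at 12°, a log2 fold change of -3.21 ± 0.39 (SE). These heated pools held at most 12 reads, and the pools of the 2 temperatures did not overlap, as the choice of named contigs required.

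contig_475125 (1278 bp) had 4, 7, and 7 reads at 21°, against 77, 59, and 52 reads at 12°, a log2 fold change of -3.15 ± 0.38 (SE). contig_479206 (1199 bp) had 8, 13, and 12 reads at 21°, against 54, 82, and 75 reads at 12°, a log2 fold change of -2.44 ± 0.33 (SE). None of the 6 contigs with the largest falls was called in every fit that left out a library. contig_1376139 was called in 3 of the 6 fits, contig_1392307 in 2, contig_273585, contig_270166, and contig_479206 in 1 each, and contig_475125 in 0, where its adjusted p-values lay between 0.0132 and 0.0362 from the edgeR test. All 6 were lost without 21° replicate 1, with adjusted p-values of 0.0235 to 0.0541, and without 12° replicate 2, with adjusted p-values of 0.0172 to 0.0537.

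Ordered by reads lost, contigs with more reads led. contig_1413723 (740 bp) had 31.6, 27.985, and 23.0 CPM at 21°, against 81.1, 64.1, and 66.3 CPM at 12°, a log2 fold change of -1.36 ± 0.15 (SE; edgeR, adjusted p = 2.81e-03), and was lost without 21° replicate 1 (0.0144), 21° replicate 2 (0.0293), 12° replicate 2 (0.0140), or 12° replicate 3 (0.0106). denovo_contig_17116 (3335 bp) had 32.9, 33.1, and 31.5 CPM at 21°, against 68.1, 71.8, and 74.0 CPM at 12°, and its pools were close together at both temperatures. Its log2 fold change was -1.13 ± 0.10 (SE; edgeR, adjusted p = 6.77e-04). It was called in 4 of the 6 fits that left out a library, and its adjusted p-value was 0.0130 without 21° replicate 1 and 0.0110 without 21° replicate 2.

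denovo_contig_55115 (2670 bp) averaged 17.1 ± 2.90 CPM at 21° and 51.6 ± 10.8 CPM at 12° (SD, n = 3 pools each), a log2 fold change of -1.60 ± 0.18 (SE; edgeR, adjusted p = 3.69e-03). contig_482716 (2031 bp) averaged 22.2 ± 1.26 CPM at 21° and 48.4 ± 6.48 CPM at 12° (SD, n = 3 pools each), a log2 fold change of -1.12 ± 0.12 (SE; edgeR, adjusted p = 2.73e-03). Both were lost without 21° replicate 1, 21° replicate 2, or 12° replicate 2, with adjusted p-values of 0.0147 to 0.0414 in edgeR, and denovo_contig_55115 also without 12° replicate 3 (0.0153). No downregulated contig had a mean above 51.9 CPM over the 6 libraries, whereas 20 upregulated contigs had a mean above 100 CPM. Over all contigs tested, 820 of 144379 had a mean above 100 CPM, so few of 86 contigs would lie there by their number alone. This mean also includes the reads gained or lost at 21°.

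The share of contigs called increased with mean CPM in both directions. The contigs tested were divided into 5 groups of equal size by mean CPM over the 6 libraries. In group 1, the lowest, below 0.296 CPM, 3 of 28876 contigs were upregulated (0.0104%) and 0 downregulated. In group 3, from 0.717 to 2.00 CPM, 97 were upregulated (0.336%) and 14 downregulated (0.0485%). In group 5, above 6.97 CPM, 395 were upregulated (1.37%) and 38 downregulated (0.132%). Group 5 thus held 395 of the 790 upregulated contigs and 44.2% of the downregulated ones, the second of these shares being 33.7% when the groups were formed by RPKM. By RPKM the downregulated contigs did not increase at every step, with 6, 5, 16, 30, and 29 of them in groups 1 to 5. Contigs called at low abundance showed larger changes, with a median log2 fold change of 2.82 for the upregulated contigs of group 2 and 1.496 for those of group 5. In the downregulated contigs these medians were -2.79 and -1.25. A contig with few reads passes the test only when its change is large, so that these shares and medians describe the contigs called and not all contigs that changed.

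Scaled by length, over the 6 libraries, the upregulated contigs had a median level of 8.83 RPKM and the downregulated contigs 5.80 RPKM, against 1.76 RPKM over all contigs tested. By temperature, the upregulated contigs had a median of 13.2 RPKM at 21° and 4.14 RPKM at 12°, and the downregulated contigs 3.32 RPKM at 21° and 8.17 RPKM at 12°. The 40 upregulated contigs with a mean under 1 CPM had log2 fold changes of 1.77 to 5.33. The 9 downregulated contigs under 1 CPM had log2 fold changes of -5.35 to -1.95. Over all contigs tested, 67783 of 144379 had a mean under 1 CPM, and at such levels only large changes pass the test.

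Called contigs were somewhat longer than the contigs tested, with a median of 800.5 bp in the upregulated and 1144.5 bp in the downregulated contigs, against 712 bp over all contigs tested. Upregulated contigs were most frequent at both ends of the length range, with 85 of 11129 contigs below 200 bp (0.764%) and 134 of 15755 contigs of 2000 bp and over (0.851%). From 200 bp to under 1000 bp the share lay between 0.436% and 0.454%. Downregulated contigs were most frequent from 1000 bp upward, with 34 of 33831 contigs of 1000 to under 2000 bp (0.1005%) and 15 of 15755 of 2000 bp and over (0.0952%), against shares of 0.0314% to 0.0449% in the shorter contigs. Contigs of at least 1000 bp made up 41.9% of the contigs upregulated and 57.0% of those downregulated. They were also a large part of the 144379 contigs tested, with 33831 of 1000 to under 2000 bp and 15755 of 2000 bp and over.

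Length and abundance went together, and the picture by length differed within abundance groups 4 and 5. There, the upregulated share was 1.32% below 200 bp, 1.55% from 200 bp, 1.70% from 300 bp, and 1.24% from 500 bp to under 1000 bp. It was 0.948% from 1000 to under 2000 bp and 0.972% at 2000 bp and over, so that among abundant contigs the longer ones were not the ones most often upregulated. The downregulated share in these groups was 0.0693% below 200 bp, 0.106% from 200 bp, 0.123% from 300 bp, and 0.0965% from 500 bp to under 1000 bp, and then 0.146% from 1000 to under 2000 bp and 0.109% at 2000 bp and over. These shares rest on 3 to 25 contigs each and follow no steady order with length.

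**Figure D4:**
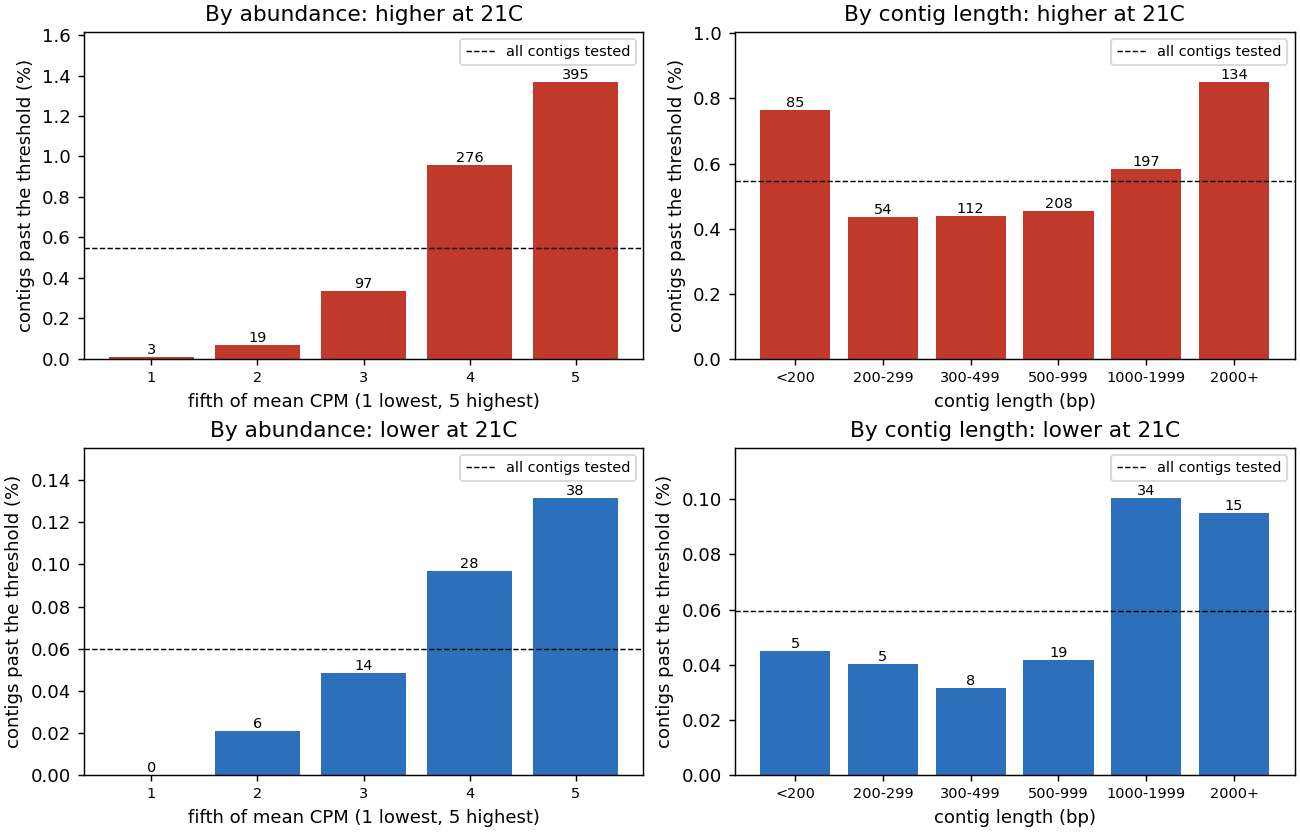
Bars give the percentage of contigs tested that were upregulated (red) or downregulated (blue) at 21°, by group of mean CPM (1 lowest, 5 highest) on the left and by contig length in bp on the right, with the number of contigs above each bar and the percentage over all contigs tested as a dashed line (0.547% and 0.0596%). The percentage rises with abundance to 1.37% and 0.132% in group 5, and is highest for upregulated contigs below 200 bp and from 2000 bp upward. The mean CPM that forms the groups includes the reads gained or lost at 21°.

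The longest contigs called had small changes. denovo_contig_20032 (6907 bp) averaged 101.9 ± 5.45 CPM at 21° and 49.3 ± 5.55 CPM at 12° (SD, n = 3 pools each), a log2 fold change of 1.05 ± 0.11 (SE; edgeR, adjusted p = 2.88e-03). denovo_contig_25447 (6827 bp) had 5.79, 5.88, and 6.50 CPM at 21°, against 2.55, 2.48, and 2.31 CPM at 12°, a log2 fold change of 1.31 ± 0.14 (SE; edgeR, adjusted p = 2.74e-03). Each was called in 2 of the 6 fits that left out a library, namely those without 21° replicate 3 and without 12° replicate 1. Their adjusted p-values in the other 4 fits were 0.0146 to 0.0313.

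Of the downregulated contigs, the longest was denovo_contig_50877 (4192 bp), with 2.72, 2.90, and 2.35 CPM at 21°, against 5.46, 5.94, and 6.10 CPM at 12°, and a log2 fold change of -1.14 ± 0.15 (SE; edgeR, adjusted p = 7.20e-03). It was called in 0 of the 6 fits that left out a library, with adjusted p-values of 0.0101 to 0.0556. denovo_contig_61847 (3520 bp) averaged 12.4 ± 0.701 CPM at 21° and 27.6 ± 4.48 CPM at 12° (SD, n = 3 pools each), a log2 fold change of -1.16 ± 0.14 (SE; edgeR, adjusted p = 4.01e-03), and was called in 2 of these 6 fits, those without 12° replicate 1 and without 12° replicate 3. In the other 4 its adjusted p-value lay between 0.0131 and 0.0338.

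The 790 upregulated contigs held 2.42%, 2.51%, and 2.27% of all reads in the pools at 21°, against 0.636%, 0.617%, and 0.557% at 12°. The 86 downregulated contigs held 0.0412%, 0.0400%, and 0.0406% of the reads at 21°, against 0.0975%, 0.108%, and 0.108% at 12°. Since the contigs were chosen by this contrast, the shares are a description and carry no test. The summed gain of the upregulated contigs was 18422 CPM, and the summed level of the downregulated contigs fell by 615.6 CPM. Of the gain, 28 of 790 contigs held 50%, and the 10 with the largest gains 33.1%. Of the loss, 16 of 86 contigs held 50%, and the 10 with the largest losses 39.3%.

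The share of reads on the most abundant contigs differed between the temperatures by less than the SD between the pools at 12°. For the 10 most abundant contigs the difference, -0.097 percentage points, was larger than the SD between the pools at 21°. The 10 contigs with the most reads in each library took 3.75% ± 0.037 of the reads at 21° and 3.84% ± 0.31 at 12° (SD, n = 3 pools each; two-sided exact permutation test, p = 0.6). The 100 most abundant held 11.7% ± 0.48 at 21° and 11.7% ± 0.59 at 12° (p = 1 from the same exact test), and the 1000 most abundant 27.5% ± 0.83 at 21° and 27.6% ± 1.201 at 12° (p = 0.9 from the same exact test). The number of contigs detected by 1 read or more was 170137, 168767, and 171910 at 21°, against 183630, 175381, and 175503 at 12°, so that every pool at 21° lay below every control pool (exact permutation test, p = 0.1, the smallest that 3 pools against 3 allow). After adjustment over these 4 measures the p-values were 1, 1, 1, and 0.4. The mean number of contigs detected differed by -7900 (21° minus 12°). With single libraries left out this difference ranged from -9295 to -5171, and it was smallest in size without 12° replicate 1. The pools at 21° also held fewer reads. Thinned to the reads of the smallest of the 6 libraries, they were expected to have 170137, 167936, and 171146 contigs with a read at 21°, against 182994, 174079, and 174689 at 12°.

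Along the whole range of temperatures the contigs called at 21° held shares of reads that changed step by step. The comparisons of 15°, 18°, 21°, and 25° share the same control pools, and the shares are given side by side as a description. The upregulated contigs held between 0.557% and 0.636% of the reads at 12°, between 0.658% and 0.667% at 15°, and between 1.05% and 1.12% at 18°. At 21° they held the 2.27% to 2.51% given above, and in the 25° pools between 9.98% and 12.1%. The downregulated contigs held between 0.0975% and 0.108% of the reads at 12°, between 0.0849% and 0.0865% at 15°, and between 0.0576% and 0.0597% at 18°. Their share was lowest in the 25° pools, between 0.0203% and 0.0244%. In neither set did the pools of neighbouring temperatures overlap. The contigs were chosen by their levels in these pools at 12° and 21°, so that part of the distance between neighbouring temperatures can come from that choice. The median ratio of a contig's mean CPM to its 12° mean (0.05 CPM added to both) was 1.11 at 15°, 1.73 at 18°, 3.01 at 21°, and 8.46 at 25° in the upregulated contigs, and 0.797, 0.539, 0.381, and 0.233 at these temperatures in the downregulated contigs.

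**Figure D5:**
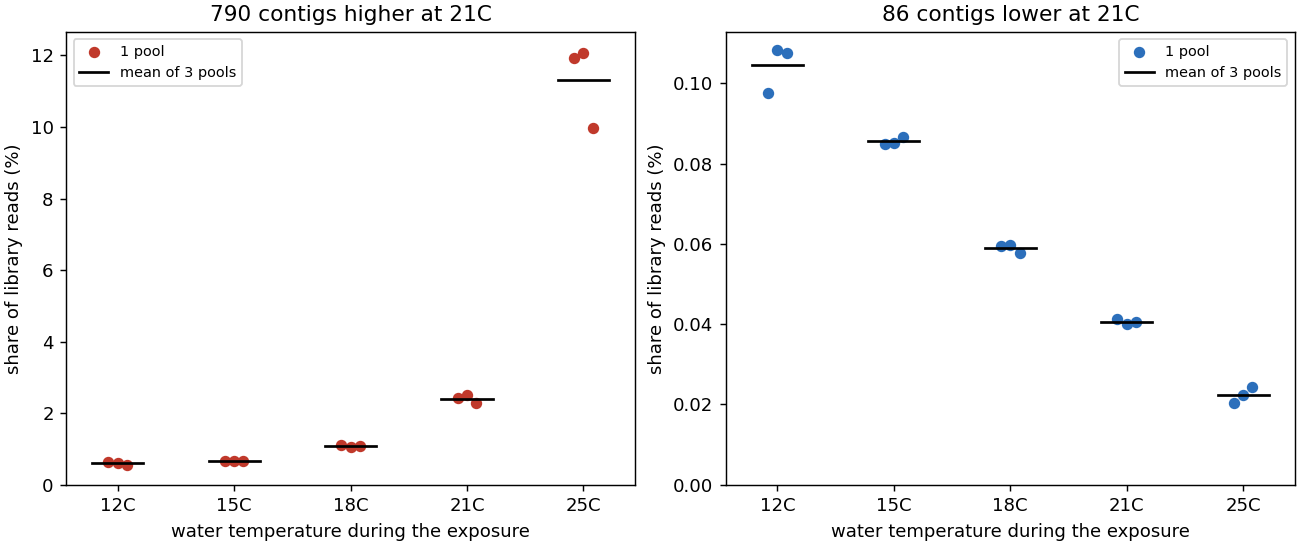
Each point is the percentage of the reads of 1 pool that fell on the 790 contigs upregulated at 21° (left, red) or the 86 contigs downregulated at 21° (right, blue), at each of the 5 temperatures, and black lines are means of 3 pools. The share of the upregulated contigs reaches 2.27% to 2.51% at 21° and 9.98% to 12.1% at 25°, and the share of the downregulated contigs is lower at each higher temperature, down to 0.0203% to 0.0244% at 25°. The 25° pools include fish that became unresponsive or died during the exposure.

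Single contigs followed this course at different paces, on a scaling of all 15 libraries. denovo_contig_60596 had 2.68 ± 0.662 CPM at 12°, 4.10 ± 0.251 at 15°, 50.6 ± 2.71 at 18°, 452.7 ± 53.2 at 21°, and 2951 ± 332.0 at 25° (SD, n = 3 pools each). denovo_contig_67625 stayed at its control level longer, with 5.57 ± 2.06 CPM at 12°, 5.18 ± 2.24 at 15°, and 34.0 ± 6.05 at 18°, and then had 390.5 ± 34.7 CPM at 21° and 9494 ± 2256 at 25° (SD, n = 3 pools each). denovo_contig_61835, in contrast, had 241.1 ± 55.3, 273.2 ± 11.8, 706.0 ± 76.6, 1451 ± 163.1, and 2405 ± 206.1 CPM at the 5 temperatures from 12° to 25° (SD, n = 3 pools each), so that its level changed by a smaller factor from 21° to 25°.

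Of the 12 named downregulated contigs, 9 had a lower mean at each higher temperature. denovo_contig_17116 had 68.7 ± 3.84, 60.1 ± 6.61, 43.4 ± 0.644, 30.7 ± 1.09, and 12.9 ± 1.81 CPM from 12° to 25° (SD, n = 3 pools each). The other 3, contig_475125, contig_270166, and contig_479206, all with few reads, had their lowest mean at 21°. contig_475125 had 0.725 ± 0.162, 0.686 ± 0.155, 0.388 ± 0.167, 0.0783 ± 0.0145, and 0.351 ± 0.110 CPM from 12° to 25° (SD, n = 3 pools each). contig_270166 had 0.0798 ± 0.0246 CPM at 21° and 0.237 ± 0.0647 at 25° (SD, n = 3 pools each). contig_479206 had 0.144 ± 0.0216 CPM at 21° and 0.212 ± 0.0820 at 25° (SD, n = 3 pools each). These 3 contigs were named for their large falls at 21°, so that part of the distance to the 25° pools can come from that choice. The difference between 21° and 25° was not tested.

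The contigs called were shared unevenly between the 2 sets of contig names. Of the 47262 contigs tested whose names begin with denovo, 371 were upregulated (0.785%) and 35 downregulated (0.0741%), and of the 97117 others, 419 (0.431%) and 51 (0.0525%). The denovo contigs tested were longer, with a median of 1155 bp against 579 bp, and held more reads, with a median of 3.67 CPM against 0.762 CPM. Of the upregulated contigs, 16 of 790 had less than 50% unique reads, against 1.09% of the contigs tested, and of the downregulated contigs 0 of 86. Between the pools of 21°, the median coefficient of variation was 10.4% in the upregulated and 10.7% in the downregulated contigs, and between the pools of 12° it was 13.9% and 12.2%. Over the 29363 contigs tested with a mean of at least 6.80 CPM, it was 9.65% at 21° and 11.1% at 12°. The test depends on the spread between pools, so that the values of the contigs called are partly set by their choice.

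Within the groups, the same library was often the highest. In the upregulated contigs, 21° replicate 2 was the highest heated pool in 430 contigs (54.4%) and 12° replicate 1 the highest control pool in 484 (61.3%). Over the 29363 contigs tested with at least the median abundance of the contigs called, 6.80 CPM, the shares for these libraries were 45.4% and 62.1%. In the downregulated contigs no library stood out in this way, with 23 to 32 contigs highest in each pool at 21° and 26 to 32 in each pool at 12°. The part of this library pattern in the results was not tested.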

How the data were processed

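Gill RNA was sequenced as paired-end reads. The values used are the deposited counts, whole numbers of reads per contig (total gene reads), for which the authors trimmed reads with Cutadapt, assembled them de novo, and aligned each library back to the contigs in CLC Genome Workbench. They include reads that aligned to several contigs. The table has 98 columns, of which 66 were not used, and 16 of these hold the authors' own comparisons (fold changes, differences of proportions and test statistics with p-values). Libraries were grouped by their labels, 3 at 21° and 3 at 12°. The replicates were run on 3 consecutive days, but the sources used here do not say that the same number at both temperatures marks the same day. Deviations of pools with the same number had r of 0.44, -0.15, and 0.73, and those of pools with different numbers had r from -0.697 to 0.573. These values do not decide the pairing. The pools were not treated as pairs in the main fit, and a replicate block was run as an alternative.

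Contigs with 10 reads or more in 3 or more of the 6 libraries were kept and no values were imputed. Library sizes were scaled by TMM, and counts were tested by edgeR's quasi-likelihood F-test (edgeR 4.0.16, R 4.3.3) over all contigs kept, with adjustment over all of them, since the values are counts. Each standard error was obtained as the log2 fold change over the root of its F statistic. p-values measure the spread between pools of fish, not between fish. Other analysis used Python 3.11.15 with pandas 2.3.3 and scipy 1.17.1. The fit was tested on simulated data. Alternatives were other scaling, DESeq2 1.42.0, other filters and thresholds, unique reads, a replicate block, all 15 libraries in 1 fit, longer contigs, and each library left out. Named contigs were the 6 largest rises and falls by fold, the 6 rises and 4 falls with the largest difference of mean CPM, the 2 longest in each direction, all with groups that did not overlap, and the 3 most abundant. The comparison, its lists, and rules were chosen with earlier results of these data known.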

Additional observations from a re-analysis of the deposited data

How the results depend on the processing

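The 790 upregulated and 86 downregulated contigs became 1722 and 626 with the DESeq2 Wald test, 1607 and 474 when the adjusted p-value had to be under 0.05, and 1616 and 448 with all 15 libraries in 1 fit. Fitted alone, the contigs without denovo in their name gave 444 and 55 and those with it 342 and 37, with fewer contigs tested, alternatives chosen after seeing the data. With single libraries left out the counts ranged from 236 to 803 upregulated and from 8 to 116 downregulated. With the replicate block, where the sources used here do not say that pools with the same number share a day, 1039 contigs were upregulated and 181 downregulated, of which 786 and 84 were among the contigs called without it. The other scalings and filters, unique reads, longer contigs, and halved reads (tried after even numbers were seen to make up 55.2% to 63.9% of low read counts) gave 642 to 892 upregulated and 73 to 110 downregulated contigs, and without the fold threshold there were 916 and 116. The cause of these changes was not tested.

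With single libraries left out, the difference of 21° minus 12° in the share of the 100 most abundant contigs ranged from -0.333 to 0.258 percentage points, and that of the 1000 most abundant from -0.630 to 0.547. The share of downregulated contigs in the highest abundance group was 33.7% by RPKM, against 44.2% by CPM. The 3 most abundant contigs changed sign within small values: denovo_contig_28702 ranged from -0.0118 to 0.104 on the log2 scale, denovo_contig_61658 from -0.0553 to 0.0771 and was -0.0355 with library totals, and denovo_contig_29829 ranged from -0.0882 to 0.0411. All other named contigs kept their direction in every alternative run, and most calls were lost only with a library left out. The exceptions were denovo_contig_78846 on unique reads and contig_273585 with halved reads. The 6 largest falls by fold and denovo_contig_78846 were not tested where 10 reads were required in all 6 libraries, and the named contigs under 300 bp not among the longer ones. Contigs with few reads pass only with large changes, and 3 pools per temperature limit the smallest permutation p-value to 0.1.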

Other observations

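Contigs read at one temperature and nearly absent at the other were few, and this pattern was chosen after the counts were seen. With at least 10 reads in each pool at 21° and at most 3 in each pool at 12° there were 6 contigs, none with more than 30 reads, and 0 of them passed the threshold (smallest edgeR adjusted p = 0.0118). With at most 3 reads in each pool at 21° and at least 10 in each pool at 12° there were 77, and only contig_273585 passed. Without 12° replicate 1, the library with reads in nearly every contig, these numbers were 42 and 254. The cut-offs were set on reads without scaling, and the pools at 21° held fewer reads than those at 12°.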
